A study of Mus musculus with 12 samples.

Results

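Interferon-stimulated genes were described in the soleus of 12 mice. The set holds 39 genes listed by symbol as targets or carriers of the interferon response, and 38 of them were found among the 28997 genes of the deposited tables. Igtp was not analysed here. The soleus, a calf muscle with many slow fibres that rely on oxygen, was profiled by stranded mRNA sequencing in 4 groups of 3 mice. The groups were Cdh5Cre-NOX1CKO mice on a high fat diet, Cdh5Cre-NOX1CKO mice on a chow diet, Cdh5cre-WT mice on a high fat diet and Cdh5cre-WT mice on a chow diet, each for 8 weeks. All 12 mice thus carry the Cdh5-driven Cre, which is active in endothelial cells, and the knockout removes Nox1, an NADPH oxidase that makes superoxide, from cells with that Cre. Age is not given in the labels. The authors compared the groups under the codes G1 to G4 in 4 deposited tables. Neither labels nor headers say which genotype and diet each code stands for. The groups are therefore called by code, and no difference is assigned to the knockout or to the diet.

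Interferons are secreted proteins through which cells warn each other of infection or damage. Type I interferons bind the receptor of Ifnar1 and Ifnar2 and activate a factor that contains STAT2 and IRF9 and binds interferon-stimulated response elements (ISRE) in the promoters of its target genes. Interferon gamma binds the receptor of Ifngr1 and Ifngr2 and acts through gamma-activated sites (GAS). The target genes code for sensors of foreign RNA and DNA, for proteins that block the steps of viral growth, for GTPases that attack the vacuoles of intracellular pathogens and for the factors that carry the signal itself.

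The deposited values, which hold 15 significant digits, allowed the whole reads in each of the 12 libraries to be solved for all 38 genes. Libraries were named by group code and a letter (G4a to G1c), given by falling size factor within a group, and cannot be tied to a particular mouse. Values below are normalised reads, that is reads divided by the size factor of the library. Size factors ran from 0.787 to 0.938 in G4, 0.797 to 1.16 in G3, 0.986 to 1.25 in G2 and 0.931 to 1.06 in G1, around a mean of 24905255 normalised reads per library. The muscle genes Acta1 and Myh7 had totals of 6621511 and 3000445 normalised reads over the 12 libraries, and the endothelial gene Cdh5 had 51750. Nox1, the targeted gene, had a total of 25.2 normalised reads over the 12 libraries, too few to be solved per library. Its log2 in the authors' deposited tables was -0.71 in G4 against G2 (p = 0.569), -0.23 in G3 against G1 (p = 0.862) and 0.15 in G4 against G3 (p = 0.907). Its rebuilt value in G2 against G1 was 0.64, and it does not tell the codes apart. One library stood apart in the interferon-stimulated genes. G4c was the highest of the 12 libraries in 30 of the 38 genes (78.9%), whereas it was the highest in 11.7% of all 13478 genes that reached a total of 100 and had solved reads. The other 11 libraries were the highest in 0 to 5 of the 38 genes each. Values of G4 against G2 are therefore also given without G4c where the reads were solved. Since the tissue was measured in bulk, more cells of a type and more RNA per cell cannot be told apart.

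**Figure D1:**
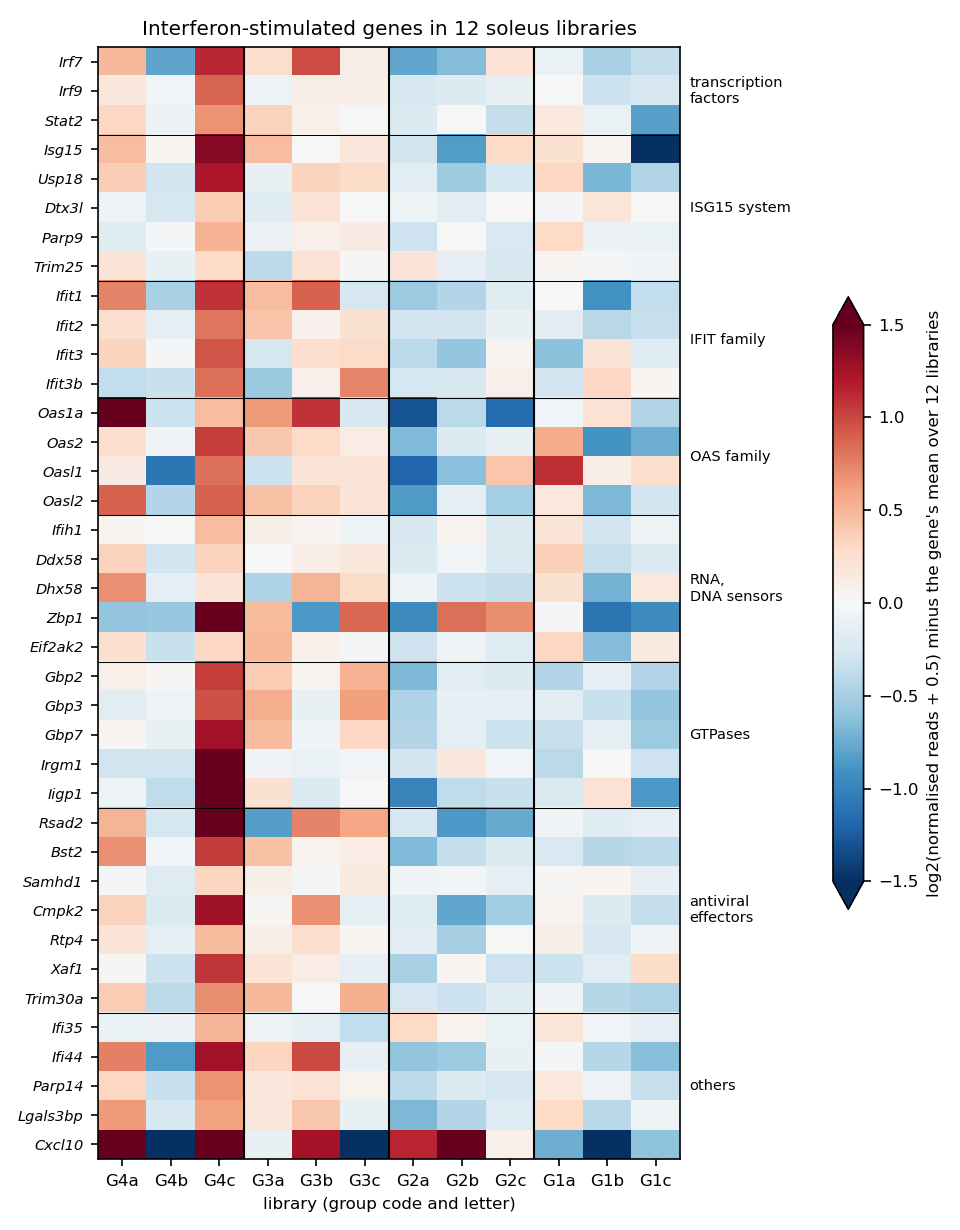
Heat map of the 38 interferon-stimulated genes (rows, by role) in the 12 libraries (columns, by group code). Colour gives log2 of normalised reads plus 0.5, minus the mean of the gene over the 12 libraries, with arrows where the scale ends. The column of G4c is the darkest red in most rows. The columns of G2, G1b, G1c and G4b are mostly blue, while G1a is above the mean in 20 of the 38 genes.

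Promoters of the set are rich in the element bound by the complex that contains STAT2 and IRF9. In RefSeq promoter windows on GRCm38.p6, from 250 bases before to 50 bases after a start, the ISRE letters GAAA, any 2 bases and GAAA again were searched on both strands, together with the GAS letters TTCNNNGAA, which read the same on both strands. Windows were given for 31 of the 39 genes, and 18 of these 31 (58.1%) held an ISRE match, against 3.99% of all 27025 genes with a window. A GAS match was found in 8 of the 31 (25.8%), against 9.55% of all genes. The 5 stretches below, all upstream of the start, are shown because they belong to Bst2 and Gbp7, of the 4 genes that passed a test in these data, and to 3 genes often used to read out an interferon response (Ifit1, Isg15 and Rsad2). Of the other called genes, Gbp2 held 1 ISRE match, in a stretch that is not printed because it overlaps an annotated exon, and the windows of Ifit2 held none. Capitals mark ISRE matches on either strand, and matches can overlap; the GAS match of Bst2 overlaps its first ISRE match.
Bst2: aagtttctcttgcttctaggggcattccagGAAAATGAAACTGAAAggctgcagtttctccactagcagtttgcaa
Gbp7: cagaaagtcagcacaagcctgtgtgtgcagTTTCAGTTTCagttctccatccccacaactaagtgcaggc
Ifit1: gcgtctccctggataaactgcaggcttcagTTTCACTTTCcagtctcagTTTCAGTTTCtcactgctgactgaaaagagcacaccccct
Isg15: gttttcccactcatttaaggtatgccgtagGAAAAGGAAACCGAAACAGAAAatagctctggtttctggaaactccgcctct
Rsad2: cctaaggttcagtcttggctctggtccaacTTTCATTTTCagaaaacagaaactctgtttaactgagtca
These stretches lie on GRCm38.p6 at chr8:71537557-71537632 (minus strand) for Bst2, chr3:142530253-142530322 (plus strand) for Gbp7 and chr19:34640755-34640843 (plus strand) for Ifit1. The stretch of Isg15 lies at chr4:156200845-156200926 (minus strand) and that of Rsad2 at chr12:26456533-26456602 (minus strand). Isg15 held 3 overlapping matches, Bst2 and Ifit1 held 2 each, and Gbp7 and Rsad2 held 1 each. The median log2 fold change in G4 against G2 was 0.70 among the 17 measured genes with an ISRE match and 0.57 among the 13 with a window and no match. These medians were 0.51 and 0.21 in G3 against G1, 0.16 and 0.16 in G4 against G3 and -0.01 and -0.07 in G2 against G1, all a description with no test. A match says only that these letters are present.

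All 38 genes had positive values in G4 against G2, with a median log2 fold change of 0.58, a 1.5-fold difference. Among all 15494 genes with a total of at least 100 the median was 0.00 and 50.1% were positive. One gene passed an adjusted p of 0.05 (step-up adjustment, as the authors deposited it for 14539 genes, 35 of the 38 among them; Zbp1, Oasl1 and Cxcl10 were given none): Bst2, the gene of tetherin, a membrane protein that ties budding virus to the cell. The share of all tested genes called higher in G4 against G2 was 1.02%, and 0.351% were called lower. At an unadjusted p under 0.05, 20 of the 38 were higher and 0 lower, and 5.23% of all genes were higher at that p. All 3 libraries of G4 lay above all 3 of G2 in 7 genes, Irf9, Oas1a, Oas2, Gbp2, Gbp7, Rsad2 and Bst2, and the same held in 6.68% of all genes, while 0 lay below in all 3 against 6.80% of all genes. limma on the solved reads called 0 of 37 genes and 0.0816% of all genes higher, with 14 higher at an unadjusted p under 0.05. The share of all genes at that p is not given for limma, here or below, so its counts at that p have no background beside them. Without G4b, limma called Bst2 (adjusted p = 0.0328), as 1 of 11 genes called higher among all 13478, and 23 were higher at an unadjusted p under 0.05. With any other 1 library left out, limma called 0, and without G4c 3 were higher at that p. Without G4c, the median of 37 genes (Cxcl10, under a total of 100, left out) was 0.30, 30 were positive and 0 were called. At an unadjusted p under 0.05, 4 were then higher, beside 2.98% of all genes. Irgm1, Zbp1, Ifit3b, Ifi35, Dtx3l, Oasl1 and Samhd1 had values below 0 without G4c.

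In G3 against G1, which shares no group with G4 against G2, 33 of the 38 genes were above 0 and the median log2 was 0.31, a 1.24-fold difference. None was called in the authors' deposited table, where 0.169% of all genes were called higher and 0.0414% lower, and limma on the solved reads called 0 as well, with 0.0148% of all genes called higher. At an unadjusted p under 0.05, 8 of the 38 were higher and 0 lower, while 2.90% of all genes were higher at that p. In limma 5 were higher at that p, with no share of all genes given. In 8 genes all 3 libraries of G3 lay above all 3 of G1 (Irf7, Ifit2, Oasl2, Gbp2, Gbp3, Gbp7, Bst2 and Trim30a), as they did in 5.63% of all genes, and 0 lay below, against 5.86%. Gbp2, Gbp7 and Bst2 were thus without overlap in both comparisons, and the share of all genes without overlap in both was not counted. The 5 genes with values below 0 were Dtx3l, Parp9, Trim25, Oasl1 and Ifi35.

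**Figure D2:**
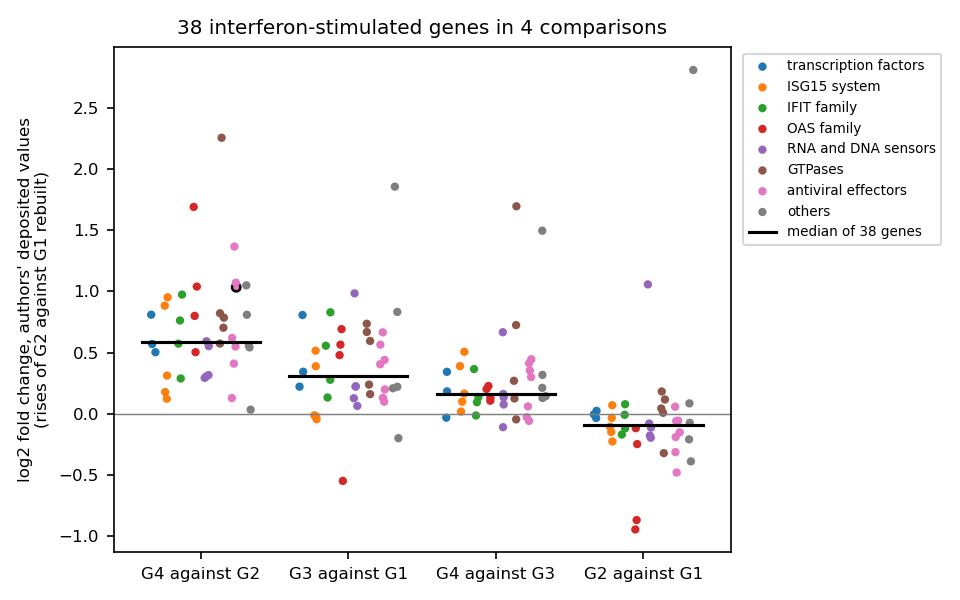
Log2 fold change of each of the 38 genes (points, coloured by role) in the 4 comparisons, with the median as a black bar; the black ring marks Bst2, the 1 called gene. Medians are 0.58 for G4 against G2, 0.31 for G3 against G1, 0.16 for G4 against G3 and -0.09 for G2 against G1.

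The average of G4 against G2 and G3 against G1 uses all 12 libraries. Its median over the set was 0.54, with 36 of 38 genes positive. At an adjusted p of 0.05 over the 15494 genes, 4 were called, all higher: Bst2, Gbp2, Ifit2 and Gbp7, against 1.21% of all genes called higher and 0.439% lower. At an unadjusted p under 0.05, 22 were higher and 0 lower, and 5.56% of all genes were higher at that p. None of the 4 kept its call without G4c, where their log2 values were 0.67, 0.52, 0.42 and 0.42. In the same test adjusted over the 13478 solved genes, 3 were called, with Gbp7 lost. There Bst2 lost its call without G4c alone, Gbp2 also without G2a or G3c, and Ifit2 also without G1b, G1c, G2a, G2b, G3a or G3c. Without G4b, 7 genes of the set were called, among 106 of all 13478 genes called higher. With a t distribution on 8 degrees of freedom in place of the normal, 0 were called. limma on the solved reads called 0 of 37 and 0.252% of all genes higher, with 22 higher at an unadjusted p under 0.05 and a smallest adjusted p of 0.10. Its share of all genes at that unadjusted p is not given. Without G4b, limma called 4, Bst2, Ifit2, Oasl2 and Trim30a (smallest adjusted p = 0.0105), among 43 of all genes called higher. With any other 1 library left out, limma called 0. Without G4c, 12 were higher in limma at an unadjusted p under 0.05, and the smallest adjusted p was 0.155. The difference between the comparisons (G4 against G2 minus G3 against G1) had a median of 0.24, with 34 genes positive, and no gene of the set was called or reached an unadjusted p under 0.05, in the same test or in limma, while 1.99% of all genes were higher at that p and 0.00645% were called lower. Without G4c the median of that difference was 0.01 over 37 genes, of which 19 were positive. Without G4b it was 0.49 with 36 positive, 0 were called and 2 were higher at an unadjusted p under 0.05, as were 2.37% of all genes. In limma it was 0.22 with all libraries, -0.03 without G4c and 0.41 without G4b, where 6 were higher at that p and 0 were called.

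Between G4 and G3, 32 of 38 genes were above 0, and the median log2 was 0.16. None was called, 0% of all genes were called higher and 0.0394% lower, and Iigp1 alone reached an unadjusted p under 0.05, as 2.36% of all genes did in that direction. No gene lay without overlap above or below, against 4.78% and 5.5% of all genes. Without G4c the median of 37 genes was -0.15 and 11 were positive. In G2 against G1 the median was -0.09 with 11 of 38 positive, none was called, and none reached an unadjusted p under 0.05 in either direction, while 1.09% of all genes were higher at that p and 0.00428% were called lower. Rsad2 lay lower in all 3 libraries of G2 than in all of G1, as did 4.11% of all genes, and no gene of the set with a total of 100 or more lay higher in all 3, against 3.88% of all genes. limma on the solved reads called 0 genes of the set in both comparisons, with 0 at an unadjusted p under 0.05. The average of this pair called 0 in the same test and in limma. At an unadjusted p under 0.05, 1 gene was higher in the same test and 0 in limma. The 1 gene was Cxcl10, which is under a total of 100, while 1.45% of all genes with a total of 100 or more were higher. Of all genes 0.00645% were called higher and 0.0387% lower in that average.

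Transcription factors of the pathway belong to the set as targets of their own signal. Irf9, the DNA-binding part of the complex with STAT2 (chromosome 14, 55603571 to 55610030 on GRCm38, as for all coordinates here, from the GENCODE annotation), had 178, 155 and 290 normalised reads in G4a to G4c, 151, 169 and 169 in G3, 134, 137 and 147 in G2 and 159, 126 and 134 in G1. G4 lay above G2 in every library, and the G3 and G1 ranges overlapped. Its log2 in the authors' deposited table was 0.57 for G4 against G2 (SE implied by the p-value 0.22, adjusted p = 0.229) and 0.22 for G3 against G1, and without G4c the first value was 0.26. Stat2, which joins IRF9 in that complex (chromosome 10, 128270559 to 128292849), had 218, 164 and 278 in G4, 220, 185 and 174 in G3, 152, 176 and 137 in G2 and 195, 163 and 98.8 in G1. Its groups overlapped, with log2 values of 0.50 for G4 against G2 (adjusted p = 0.499) and 0.34 for G3 against G1 in the authors' deposited tables, and 0.30 for G4 against G2 without G4c. Irf7, which drives interferon alpha genes, had the same log2 of 0.81 in both comparisons, from 141, 57.7 and 220 in G4, 120, 199 and 107 in G3, 58.5, 63.9 and 117 in G2 and 93.9, 71.7 and 78.4 in G1. G4b lay at the level of G2 in this gene, and the G3 libraries all lay above G1; without G4c the log2 of G4 against G2 was 0.32. In G4 against G3 the log2 was 0.34 for Irf9 and 0.18 for Stat2, and in G2 against G1 it was -0.01 and 0.02 in that order.

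In the ISG15 system, which tags proteins with the ubiquitin-like ISG15, the abundant members had values near 0. Dtx3l, a ubiquitin ligase that pairs with PARP9 (chromosome 16, 35926511 to 35939151), had 388, 339 and 532 normalised reads in G4 and 388, 361 and 407 in G2. Its log2 was 0.12 in G4 against G2 and -0.04 in G3 against G1 in the authors' deposited tables, with an implied SE of 0.17. Trim25, a ligase that acts with the RNA sensor of Ddx58 (chromosome 11, 88999376 to 89020293), had 440, 358 and 471 in G4 and 440, 354 and 327 in G2, with log2 values of 0.18 and -0.02 in the same tables. Without G4c, Dtx3l had -0.08 and Trim25 0.09 in G4 against G2. Both had overlapping groups, with 357, 475 and 410 for Dtx3l and 294, 448 and 390 for Trim25 in G3, and 405, 465 and 411 and 397, 380 and 372 in G1. In G4 against G3 the log2 was 0.02 for Dtx3l and 0.16 for Trim25, and in G2 against G1 it was -0.15 and -0.03 in that order. Dtx3l and Parp9 overlap each other on chromosome 16, so that reads in the shared stretch are uncertain. Isg15 itself and Usp18, which removes ISG15 and dampens the receptor, are named here after their values were seen. Isg15 was low, at 30.9, 22.9 and 58.4 in G4, 31, 22.5 and 25.1 in G3, 18.4, 12.3 and 27.4 in G2 and 26.3, 22.9 and 5.37 in G1. Usp18 had 36.3, 22.9 and 66.1 in G4 and 24.8, 19.3 and 23.3 in G2, and for both genes G4c was the highest library and G4b lay within the range of G2. Parp9 was the remaining member, at 0.31 in G4 against G2, 0.08 there without G4c and -0.01 in G3 against G1.

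The IFIT family binds foreign RNA ends and blocks translation. Its 4 members stand together on chromosome 19, and all were positive in both comparisons. Ifit2 (34550694 to 34576419) had 194, 148 and 286 normalised reads in G4, 222, 172 and 192 in G3, 135, 135 and 152 in G2 and 146, 123 and 129 in G1. All G3 libraries lay above all G1 libraries, while G4b lay just under G2c. Its log2 was 0.57 in G4 against G2 (adjusted p = 0.232) and 0.56 in G3 against G1 (adjusted p of 1) in the authors' deposited tables, and the average of both was 0.56 ± 0.15 (implied SE, adjusted p = 0.0215). Ifit3 (34583531 to 34588731) had 173, 136 and 266 in G4, 114, 163 and 168 in G3, 105, 91.9 and 142 in G2 and 89.2, 158 and 120 in G1. Its groups overlapped, with a log2 of 0.76 in G4 against G2 (adjusted p = 0.214) and 0.28 in G3 against G1 in the authors' deposited tables. Ifit3 and Ifit3b are near-identical copies, so that the split of reads between them is uncertain. Ifit1 had a log2 of 0.97 and 0.83 in the same comparisons, with 100, 42.4 and 127 in G4 and 40.8, 43.8 and 52.7 in G2, so that G4b lay within G2. Without G4c, G4 against G2 was 0.29 for Ifit2, 0.45 for Ifit3 and 0.64 for Ifit1. In G4 against G3 the log2 was 0.09 for Ifit2 and 0.36 for Ifit3, and in G2 against G1 it was 0.08 and -0.12 in that order.

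Enzymes of the OAS family sense double-stranded RNA and make 2-5A, the messenger that activates RNase L. Oasl2 (chromosome 5, 114896936 to 114912234) had 148, 58.8 and 147 normalised reads in G4, 108, 102 and 91.6 in G3, 44.0, 72.6 and 55.8 in G2 and 89.2, 49.7 and 65.5 in G1. The G3 libraries all lay above G1, and G4b lay within G2. Its log2 for G4 against G2 in the authors' deposited table was 1.04 (adjusted p = 0.106). Oas2 (chromosome 5, 120730333 to 120749853) had 46.9, 38.1 and 81.3 in G4, 52.5, 48.4 and 42.7 in G3, 24.8, 34.1 and 36.5 in G2 and 58.2, 21 and 23.6 in G1. All G4 libraries lay above G2, with a log2 of 0.80 in the authors' deposited table (adjusted p = 0.533). Without G4c, G4 against G2 was 0.85 for Oasl2 and 0.42 for Oas2. Oas1a differed from most of the set in that its highest library was G4a, with 46.9, 13.1 and 22.9 in G4 and 6.41, 12.3 and 7.10 in G2. Without G4c its log2 in G4 against G2 was 1.81, against 1.69 with all libraries. Oas1a has near-identical copies, and its reads are uncertain for that reason. In G3 against G1 the log2 was 0.56 for Oasl2 and 0.48 for Oas2. In G4 against G3 the log2 was 0.23 for Oasl2 and 0.20 for Oas2, and in G2 against G1 it was -0.25 and -0.12 in that order.

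Sensors of RNA and DNA had the smallest median gap between G4c and the other G4 libraries among the classes of the set. Ddx58, the gene of RIG-I (chromosome 4, 40203773 to 40239828), had 218, 139 and 217 normalised reads in G4, 169, 183 and 192 in G3, 147, 165 and 148 in G2 and 218, 134 and 146 in G1. Ifih1, the gene of MDA5 (chromosome 2, 62595798 to 62646255), had 168, 165 and 226 in G4, 174, 168 and 157 in G3, 139, 171 and 142 in G2 and 188, 134 and 156 in G1. Both had overlapping groups in all comparisons, and the authors' deposited table gives them a log2 of 0.32 and 0.30 for G4 against G2, with adjusted p-values of 0.737 and 0.655. Zbp1, a sensor of Z-form nucleic acids, was close to the limit of detection at 2.87 to 12.6 in 11 libraries and reached 31.8 in G4c. Dhx58 and Eif2ak2, the gene of the kinase PKR, had 0.55 and 0.29 in G4 against G2. No sensor was called in any comparison, though Zbp1 was given no adjusted p in G4 against G2. Without G4c, G4 against G2 was 0.22 for Ddx58, 0.15 for Ifih1, 0.60 for Dhx58 and 0.18 for Eif2ak2. In G3 against G1 the log2 was 0.13 for Ddx58 and 0.06 for Ifih1. In G4 against G3 the log2 was 0.08 for Ddx58 and 0.16 for Ifih1, and in G2 against G1 it was -0.11 and -0.08 in that order.

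Interferon-inducible GTPases had the widest median gap between G4c and the other G4 libraries. Iigp1, a GTPase that attacks pathogen vacuoles (chromosome 18), had 391, 317 and 3350 normalised reads in G4, 484, 357 and 413 in G3, 207, 316 and 328 in G2 and 356, 481 and 227 in G1. G4c held 9.47 times the mean of G4a and G4b. The log2 of 2.25 in G4 against G2 (implied SE 0.80, adjusted p = 0.169) and of 1.69 in G4 against G3 in the authors' deposited tables became 0.32 and -0.24 without G4c. Irgm1, a regulator of these GTPases (chromosome 11, 48861968 to 48871683), had 403, 403 and 1540 in G4, 476, 462 and 482 in G3, 408, 554 and 479 in G2 and 375, 497 and 399 in G1. For G4 against G2, its log2 of 0.70 in the authors' deposited table became -0.25 without G4c. In both genes G4a and G4b lay within the range of the 9 libraries of the other groups. In G3 against G1 the log2 was 0.24 for Iigp1 and 0.16 for Irgm1, and in G2 against G1 it was -0.32 and 0.18.

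The guanylate-binding proteins, a second family of GTPases, lie together on chromosome 3. Gbp2 (142620602 to 142638008) had 232, 224 and 452 in G4, 287, 228 and 318 in G3, 139, 197 and 192 in G2 and 162, 199 and 162 in G1. All libraries of G4 lay above those of G2, and all of G3 above those of G1. Its log2 was 0.78 in G4 against G2 (adjusted p = 0.11) and 0.67 in G3 against G1 (adjusted p = 0.978) in the authors' deposited tables, and the average was 0.73 ± 0.18 (implied SE, adjusted p = 0.00794). Gbp7 (142530342 to 142550149) had 261, 237 and 616 in G4, 358, 248 and 318 in G3, 190, 235 and 206 in G2 and 202, 233 and 176 in G1, again without overlap in either comparison. Its log2 was 0.82 in G4 against G2 (adjusted p = 0.186) and 0.59 in G3 against G1 (adjusted p of 1) in the authors' deposited tables. Its average was 0.71 ± 0.21 (implied SE, adjusted p = 0.0457), and 0.42 without G4c. Gbp3, named after its values were seen, had the reverse order of sizes, 0.57 in G4 against G2 and 0.73 in G3 against G1. Without G4c, G4 against G2 was 0.38 for Gbp2, 0.25 for Gbp7 and 0.13 for Gbp3. Gbp2, Gbp3 and Gbp7 have similar copies nearby, and the split of reads between them is uncertain. For Gbp2 and Gbp7, the log2 values of G4 against G3 were 0.12 and 0.27, and those of G2 against G1 were 0.01 and 0.04.

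**Figure D3:**
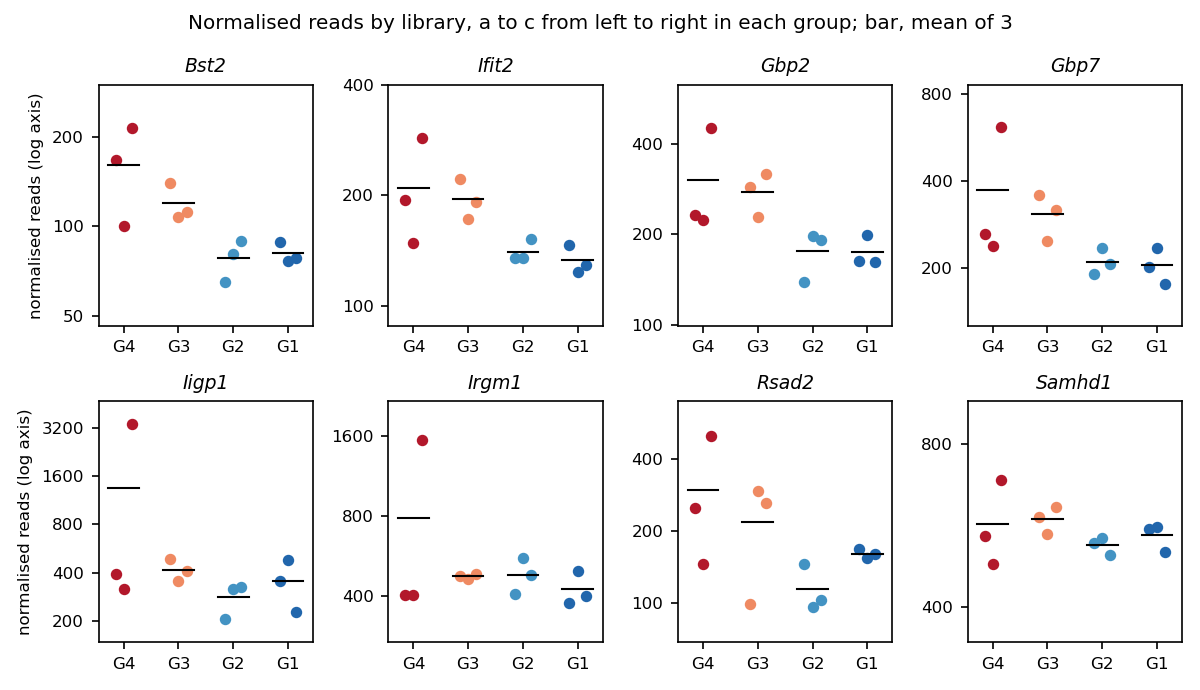
Normalised reads of 8 genes in each library (points; libraries a to c from left to right within a group; log axis) with the mean of the 3 libraries of a group as a bar. Bst2, Gbp2 and Gbp7 are without overlap between G4 and G2 and between G3 and G1, whereas Iigp1 and Irgm1 stand high in G4c and nowhere else.

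Among antiviral effectors, Bst2 (chromosome 8, 71534255 to 71537456) had 166, 100 and 213 normalised reads in G4, 140, 107 and 112 in G3, 64.9, 80.5 and 89.2 in G2 and 88.3, 76.5 and 78.4 in G1. All 6 libraries of G4 and G3 lay above all 6 of G2 and G1, and the share of all genes that did so was not counted. Its log2 was 1.03 in G4 against G2 (implied SE 0.26, adjusted p = 0.0114) and 0.56 in G3 against G1 (adjusted p of 1) in the authors' deposited tables, and the average was 0.80 ± 0.18 (implied SE, adjusted p = 0.00224). The call in G4 against G2 was lost without G4c (log2 0.77, adjusted p = 0.507), G4a (1.0, adjusted p = 0.0846), G2a (0.91, adjusted p = 0.149) or G2b (1.06, adjusted p = 0.0775) in the same test on the solved reads, and limma gave an adjusted p of 0.167. Rsad2, the gene of viperin, which makes a chain-terminating nucleotide (chromosome 12, 26442746 to 26456452), had 250, 146 and 496 in G4, 98.9, 293 and 262 in G3, 146, 96.3 and 103 in G2 and 168, 154 and 160 in G1. Its log2 in G4 against G2 was 1.36 (adjusted p = 0.193) in the authors' deposited table and 0.78 without G4c, and G3a was among the lowest libraries. Cmpk2, its neighbour on chromosome 12, had a log2 of 1.07 in that table and 0.57 without G4c. Samhd1, which breaks down the nucleotides that viruses need (chromosome 2, 157097533 to 157135265), was abundant and even, at 542, 481 and 687 in G4, 587, 546 and 611 in G3, 526, 537 and 498 in G2 and 558, 563 and 506 in G1. Its log2 was 0.13 in G4 against G2 and 0.10 in G3 against G1 in the authors' deposited tables, both with an implied SE of 0.13, and G4 against G2 was -0.03 without G4c. Trim30a, Rtp4 and Xaf1, the remaining effectors, ranged from 0.41 to 0.62 in G4 against G2, and from 0.10 to 0.30 without G4c. For Bst2, Rsad2 and Samhd1 the log2 was 0.41, 0.44 and -0.03 in G4 against G3, and -0.06, -0.48 and -0.06 in G2 against G1. Rsad2 had 0.44 in G3 against G1.

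Of the other members, Parp14, an ADP-ribosyltransferase (chromosome 16, 35832874 to 35871544), had 455, 291 and 586 normalised reads in G4, 410, 426 and 379 in G3, 279, 317 and 307 in G2 and 408, 348 and 288 in G1. Its log2 in G4 against G2 was 0.56 (adjusted p = 0.223) in the authors' deposited table and 0.31 without G4c, with G4b inside the range of G2. Lgals3bp, a secreted glycoprotein that binds galectins (chromosome 11, 118392751 to 118402092), had 409, 223 and 399 in G4, 297, 348 and 243 in G3, 165, 194 and 230 in G2 and 322, 197 and 251 in G1. Its log2 in G4 against G2 was 0.81 (implied SE 0.25, adjusted p = 0.0676) in the authors' deposited table and 0.69 without G4c, and G4a was its highest library. In G3 against G1 the log2 was 0.22 for Parp14 and 0.21 for Lgals3bp. For G4 against G3 the log2 was 0.13 for Parp14 and 0.21 for Lgals3bp, and in G2 against G1 it was -0.21 and -0.39 in that order. Ifi35 and Ifi44 had a log2 of 0.03 and 1.05 in G4 against G2, and of -0.19 and 0.58 without G4c. Cxcl10, a chemokine that draws T cells, was at the limit of detection, with 13.9, 0 and 6.35 in G4, 1.72, 5.19 and 0 in G3, 4.80, 7.0 and 2.03 in G2 and 0.939, 0 and 1.07 in G1, and its fold changes are not interpreted.

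Within G4, the set split the 3 libraries. The median over the 38 genes, as log2 of normalised reads plus 0.5 against the mean of each gene over the 12 libraries, was 0.25 in G4a, -0.25 in G4b and 0.87 in G4c. It was 0.17, 0.11 and 0.10 in G3a to G3c, -0.30, -0.21 and -0.18 in G2a to G2c and 0.01, -0.23 and -0.33 in G1a to G1c. Thus the 3 libraries of G3 lay close together, and all lay above every library of G2 and G1, while G4 ran from below the highest libraries of G2 and G1 to the highest of all 12. Over all genes these medians ran from 0.00 to 0.02. Against the mean of G4a and G4b on that scale, G4c was higher in 36 of 38 genes, Oas1a and Dhx58 being the exceptions, with a median log2 of 0.80. By class the median was 1.31 for GTPases, 0.87 for the IFIT family, 0.80 for transcription factors, 0.80 for the OAS family, 0.72 for antiviral effectors, 0.69 for the other members, 0.62 for the ISG15 system and 0.36 for sensors.

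**Figure D4:**
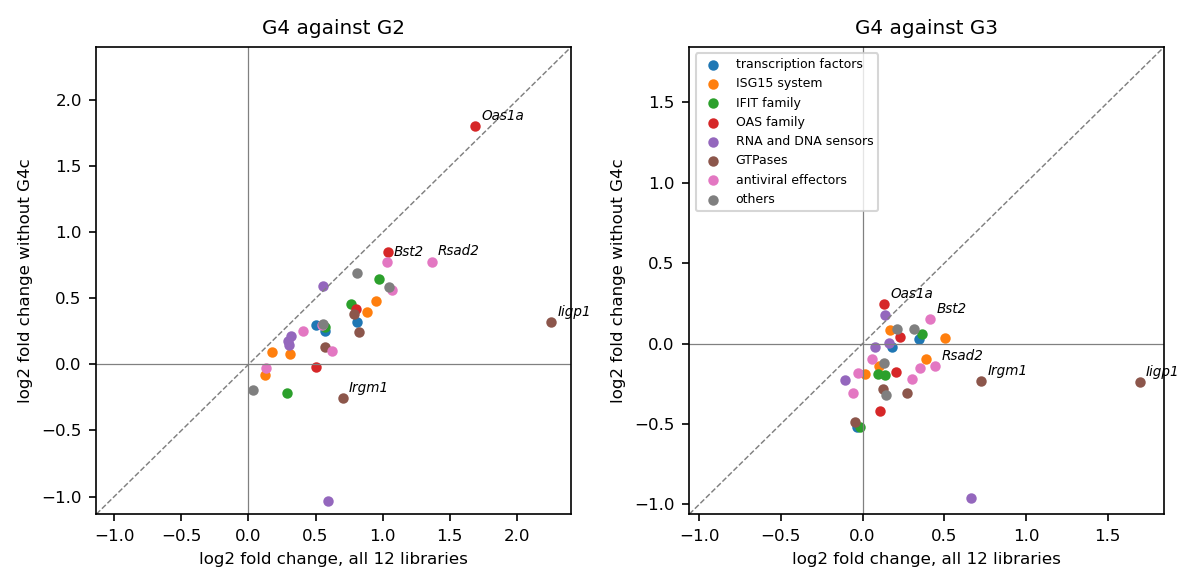
Log2 fold change of 37 genes with all 12 libraries (x axis) and without G4c (y axis) for G4 against G2 (left) and G4 against G3 (right); the dashed line marks equal values. Most points lie under the line, and Iigp1 moves from 2.25 to 0.32 in the left panel when G4c is left out.

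The wider pathway was followed through 102 further genes, of which 92 were in the tables. In G4 against G2, 78 of the 92 were positive, the median log2 was 0.26 and 2 passed the test, both higher: Tap1, a peptide pump of antigen presentation, at 1.14 (adjusted p = 0.0149), and Ly6e, a membrane protein that blocks viral entry, at 0.42 (adjusted p = 0.0368) in the authors' deposited table. That is 2 of 74 that were given an adjusted p, beside 1.02% of all tested genes. In G3 against G1, 67 were positive, the median was 0.18 and none passed the test. The average of both called 6, all higher, namely Tap1, Ly6e, Psmb8 (a proteasome subunit), B2m, H2-K1 and H2-D1 (chains of MHC class I molecules), out of 83 tested and beside 1.21% of all genes. With a t distribution on 8 degrees of freedom 0 of these calls were kept, and limma called 0 of the 78 solved genes in G4 against G2 or in the average. At an unadjusted p under 0.05 limma had 15 higher in G4 against G2 and 26 in the average, with no share of all genes given. In the same test on the solved reads, which leaves out Ly6e, Tap1 was called in G4 against G2 and 5 genes in the average. Without G4c none was called in either, and the median of the 78 was 0.17 in both, with 58 and 62 above 0. The call of Tap1 in G4 against G2 was also lost without G2a, G2b or G2c. The calls in the average also fell to 0 without G1c, G2a, G3a or G3c, to 1 without G1b and to 2 without G2b. Without G4c the log2 of Tap1 in G4 against G2 was 0.72 (adjusted p = 0.84). H2-K1 and H2-D1 have similar copies, and their reads are uncertain for that reason. Tap1 had 145, 136 and 285 normalised reads in G4, 144, 109 and 164 in G3, 78.5, 87.5 and 90.2 in G2 and 131, 95.6 and 75.2 in G1, so that G4 lay above G2 in every library. None of the 92 was called in G4 against G3 or in G2 against G1. Of the 7 interferon genes listed as ligands, none is reported here.

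None of the 6 receptor genes listed was called, and their median log2 was 0.04 in G4 against G2 and 0.03 in G3 against G1, with 4 of 6 above 0 in each. Ifnar1 had 438, 372 and 307 normalised reads in G4 and 340, 396 and 353 in G2, with a log2 of 0.04 (implied SE 0.14) in the authors' deposited table. Ifnar2, Ifngr1 and Ifngr2 had 0.04, 0.25 (adjusted p = 0.632) and 0.12 in that table. Il10rb and Ifnlr1, which serve the receptor of interferon lambda, had -0.03 and -0.38, and Ifnlr1 had a total of 73.6 normalised reads, too low for an adjusted p there. Irf1, a transcription factor induced by interferon gamma, had 214, 209 and 354 in G4, 212, 227 and 272 in G3, 213, 184 and 210 in G2 and 252, 237 and 205 in G1, with the highest value in G4c. Of 78 further genes that reached a total of 100 and had solved reads, 31 were the highest in G4c, beside 11.7% of all such genes. G4c was also the lowest library in 13.4% of all such genes.

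Markers of other cell types were read in the same libraries. The 13 macrophage markers summed to 1509 to 2481 normalised reads in the G4 libraries, 2175 to 2646 in G3, 1423 to 2266 in G2 and 1798 to 2914 in G1, and G4c, at 1835, ranked 9 of 12. Their median log2 was 0.11 in G4 against G2 (8 of 13 above 0), -0.09 in G3 against G1, -0.23 in G4 against G3 and -0.37 in G2 against G1. The 8 solved endothelial markers summed to 5439 to 7844 in G4, 5681 to 7245 in G3, 5058 to 6833 in G2 and 4934 to 7963 in G1, with G4c at rank 5. All 10 endothelial markers had positive values in G4 against G2, with a median log2 of 0.19, as did 5 of 10 in G3 against G1, with a median of 0.01. In G4 against G3 their median was 0.09 (10 of 10 above 0), and in G2 against G1 it was -0.10 (1 of 10 above 0). The 10 genes of slow and oxidative muscle, none of which was solved per library, had medians of -0.11 in G4 against G2 (1 of 10 above 0), -0.03 in G3 against G1 (4 above 0), 0.10 in G4 against G3 (9 above 0) and 0.23 in G2 against G1 (8 above 0). The 5 erythroid genes summed to 2930 to 4911 in G4, 3810 to 5065 in G3, 1830 to 3544 in G2 and 3333 to 6027 in G1, with G4c at rank 3. Their median log2 was 0.40 in G4 against G2 (5 of 5 above 0), 0.02 in G3 against G1, -0.21 in G4 against G3 and -0.70 in G2 against G1 (0 above 0 in the last pair). The 6 T cell markers summed to 21.3 to 36.3 over all libraries, with G4c second at 30.5, and the 4 B cell markers to 5.60 to 33.1. For NK cells 1 of 5 markers was solved, Gzma, which had 0 to 8.89, with 8.89 in G4c and 8.53 in G4a. For plasmacytoid dendritic cells 2 of 5 markers were solved and summed to 14.1 to 41.4, with G4c at rank 11. For neutrophils 2 of 5 markers were solved, S100a9 and Csf3r, and summed to 6.4 to 18.5 in G4, 7.74 to 17.3 in G3, 2.63 to 7.21 in G2 and 2.82 to 7.52 in G1, with 7.62 in G4c. The lowest sum in G3, 7.74, was thus less than 1 normalised read above the highest in G1, 7.52, and the ranges of G4 and G2 overlapped. Among all genes with solved reads and a total of at least 100, 5.63% lay without overlap above in G3 against G1. The median log2 of the 4 neutrophil markers in the tables was 1.27 in G4 against G2 (4 above 0) and 1.34 in G3 against G1 (3 above 0). These 4 markers were low, with totals of 3.68 (Retnlg) to 66.8 (Csf3r) normalised reads over the 12 libraries. Within G4 the sum of S100a9 and Csf3r was 6.4 in G4a, 18.5 in G4b and 7.62 in G4c, all from few reads. The median log2 in G4 against G2 and in G3 against G1 was -0.07 and 0.38 for T cell markers, 0.45 and 0.54 for B cell, 0.35 and 1.30 for NK cell and -0.31 and 0.79 for plasmacytoid dendritic cell markers. Totals over the 12 libraries were low here too, at 1.72 (Ncr1) to 33.8 (Gzma) for NK cell and 11.2 (Cd3d) to 94.7 (Lck) for T cell markers. They were 30.3 (Ms4a1) to 68.4 (Cd79a) for B cell and 11.9 (Ccr9) to 219 (Pacsin1) for plasmacytoid dendritic cell markers. The NK cell medians were the values of Gzmb (total 5.93) and Klrb1c (3.53), and medians of these low lists are not interpreted. The part of these cells in the results was not tested.

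**Figure D5:**
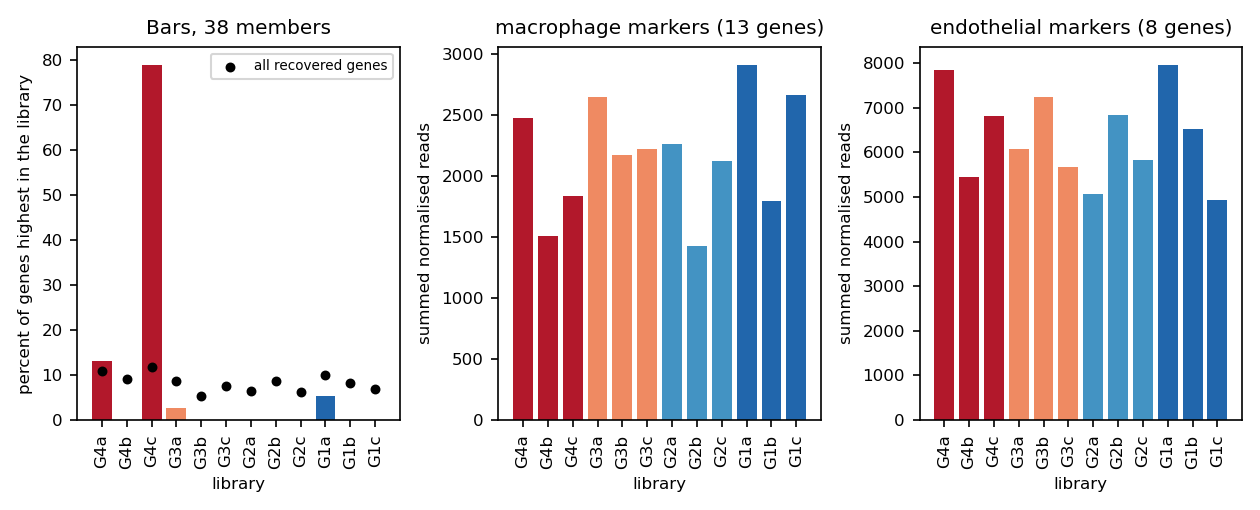
Left, percent of the 38 genes (bars) and of all solved genes (points) that are highest in each library; middle and right, summed normalised reads of 13 macrophage and 8 endothelial markers by library. G4c holds 78.9% of the set's highest values, while its macrophage sum of 1835 ranks 9 of 12.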

How the data were processed

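Soleus RNA from 12 mice, 3 in each of 4 groups, was sequenced from stranded libraries. The submitters' processing notes name Bowtie2 2.1.0, RSEM 1.2.15, edgeR and the build mm10 (GRCm38), with no role or order. Per the file headers, the authors' deposited tables hold, for each gene, a normalised signal summed over the 12 libraries, the test's p-value with its step-up adjustment, and the log2 fold change. The authors also deposited a signed fold score, with the inverse ratio and a minus sign for falls. The 4 tables hold no value per library. The planned count test could not be the main test, and the authors' p-values were used in its place.

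The table of G2 against G1 lists 15652 genes, none with a log2 above 0, and the other values were rebuilt from the other 3 tables. On 7792 listed genes, rebuilt and deposited log2 differed by at most 1.02e-14. Size factors and whole reads per library were then solved from the totals and the variances that the deposited p-values imply. A single solution was found for 97.8% of 13782 genes with totals from 100 to 20000, and the solved totals met the deposited ones within a relative 4.86e-15. A negative binomial Wald test on the solved reads returned the deposited log2 within 1.95e-05. Averages and the difference of comparisons were tested in the same way over 15494 genes with a total of at least 100, with Benjamini-Hochberg adjustment. Leaving out a library kept the dispersion of each gene from all 12. limma 3.58.1 (R 4.3.3) on log2 of solved reads was the second tool, chosen after seeing the data. For limma, the share of all genes at an unadjusted p under 0.05 is not given here. Python 3.11.15, numpy 2.4.6, scipy 1.17.1 and pandas 2.3.3 were used. The solver and tests were checked on simulated data.

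The members and lists were chosen with earlier results of these data known. Genes were named if called in a comparison or its average, or if among the 2 highest totals of their role; others are said to be chosen later. One further gene under that rule is not reported here. Mice were separate animals per the labels. Counting error is smallest for the abundant genes, and a total of 100 is 8.33 reads per library. Alternatives were the threshold, other fits and each library left out. No library could be tied to a mouse, so no batch could be examined.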

Additional observations from a re-analysis of the deposited data

How the results depend on the processing

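The positive medians of G4 against G2 and G3 against G1 kept their direction without any 1 library, at 0.30 to 0.89 and 0.20 to 0.42. The median of G4 against G3 did not, at -0.15 to 0.42, the lowest without G4c and the highest without G4b. The median of G2 against G1 was -0.16 to 0.01, and that of the difference between G4 against G2 and G3 against G1 was 0.01 (without G4c) to 0.49 (without G4b), with 0 called in each. In G4 against G2 the set had 1 called gene, 2 at an adjusted p of 0.10, 0 by limma (1 without G4b only) and 0 to 3 without 1 library. The count was 0 without G2a, G2b, G4a or G4c. It was 3 without G4b, where 70 of all genes were called higher. The log2 of Bst2 there was 0.77 to 1.28, and its adjusted p 0.00477 to 0.507. In the average of G4 against G2 and G3 against G1 the set had 4 called genes, 9 at an adjusted p of 0.10, 0 by limma (4 without G4b only), 0 with a t distribution on 8 degrees of freedom and 0 to 7 without 1 library. Shares of all genes at an adjusted p of 0.10 are not given here. The count was 0 in every fit of G3 against G1, G2 against G1 and G4 against G3 that left out 1 library. The other settings, namely the genes adjusted over, a fold of at least 1.5, totals of 50 or 300, centring, members without close copies, and removal of the trend with length, GC content and total, kept each count within 1.5 times and each median on its side of 0. The cause of these changes was not tested. No paired analysis was possible because the libraries carry no replicate number that ties them across groups. Genes with totals near 100 have few reads per library, and 3 mice a group limit what can be called.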
